A study of Mus musculus with 12 samples.

Results

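The genes described here are 42 genes of the amino acid response: the transcription factor ATF4 with other regulators of that response, enzymes that make serine and pass on one-carbon units, enzymes of other amino acids, amino acid transporters, and cytosolic aminoacyl-tRNA synthetases. They were taken by name from a fixed list, which was chosen with earlier results of these data known. They are 42 of the 20966 genes that were well above background on at least 1 array. Vldlr, the receptor for very low density lipoprotein, is on the list as a gene that ATF4 also acts on. All 42 were well above background on all 12 arrays, so none was lost to a filter on low values. Probe positions are given in mm7, the build of the array files, and whether a probe lies in a coding exon or a UTR was not examined.

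The study measured RNA from cultured mouse neural progenitor cells, which divide and can form neurons and glia, on one-colour (Cy3) Agilent arrays. Each of 11 cultures received a retrovirus made with the vector pMXs-IRESNeo, carrying the open reading frame of Crebzf, Esx1, Etv6, Gatad2b, Hmga2, Nfxl1, Pax6, Pdx1, Sox11, Zfp451 or EGFP, a green fluorescent protein that serves as a control. The other culture was labelled mock. Every culture is labelled as strain 129/Ola and was labelled from 0.25 µg of RNA. The virus dose was set so that about 95% of cells expressed the insert, the drug G418 was added 24 h after infection to remove cells that lacked the neomycin resistance of the vector, and cells were harvested at 72 h. The labels leave unsaid whether the mock culture met a virus or G418, and when it was harvested. The title of the study divides its factors into interfering and non-interfering ones, but the labels do not say which factor is of which kind, and no comparison between those kinds was made.

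Each culture gave 1 array, so no group has a replicate, no value has an error of its own and no test was possible. A level is the log2 intensity of a gene's probe relative to the 75th percentile of its array, so 0 is that percentile, and a difference is a factor's level minus the mean of the EGFP and mock levels unless stated otherwise. A gene was called lower, or higher, on a factor's array when it stood at least 2-fold below, or above, both the EGFP and the mock array. The same controls served all 10 factors, so the factors' comparisons share those arrays. Between the controls themselves the median absolute difference of the 42 genes was 0.10, and the largest, for Slc7a11, was 0.45. None of the 42 differed 2-fold between them, and 37 were higher on mock.

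The arrays lay on 3 slides of 4. The first held Pax6, Hmga2, EGFP and mock, the second Gatad2b, Etv6, Esx1 and Nfxl1, and the third Crebzf, Pdx1, Sox11 and Zfp451. The 75th percentile of signal ranged from 823.5 to 1026.0 units, the share of spots well above background from 62.9% to 69.4%, and none was saturated. The median difference of all genes was near 0 on Hmga2, Gatad2b, Etv6 and Nfxl1, -0.08 on Pax6, -0.09 on Crebzf and Zfp451, and -0.20 on Esx1, Pdx1 and Sox11. The overexpressed genes' own probes do not check the labels. Of their 26 probes, 3 were highest on the array of their own factor and 0 stood 2-fold above every other array, and the Pax6 gene was called higher on 6 arrays, its own among them. Which probes lie inside the inserted reading frames was not established here, so each array is called by its label. Among markers of neural progenitors, Nes, Sox2, Vim, Msi1 and Prom1 were well above background on all 12 arrays, Hes5 on 10, Fabp7 on 5 and Olig2 on 3.

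ATF4 is a bZIP transcription factor whose messenger RNA is translated when the initiation factor eIF2α is phosphorylated, as happens when amino acids run short or unfolded protein collects in the endoplasmic reticulum. It pairs with C/EBP proteins on a short promoter sequence, the C/EBP-ATF response element, and switches on genes for amino acid synthesis, amino acid uptake and the charging of tRNAs. In dividing cells the serine made by Phgdh, Psat1 and Psph feeds mitochondrial one-carbon metabolism through Shmt2, Mthfd2 and Mthfd1l, which supply formate for purine and thymidylate synthesis, while Aldh1l2 oxidises the same unit to carbon dioxide. The developing brain depends on this route, and inherited loss of serine synthesis impairs brain growth.

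The response element was looked for in RefSeq promoters (GRCm38.p6) of 300 bases, from 250 before to 50 after the annotated start. It was chosen because ATF4 is known to act on target genes through it. Whether ATF4 acts through it on each of the 42 was not tested. The search was for TGATGNAA on either strand, where N is any base, and no other motif was searched. Of the 42 genes, 33 had a promoter in the table and 12 of these held the element, or 36.4%. It was present in 3.97% of all 32851 promoters and in 3.12% of the 12765 symbols that were also measured on the arrays. The 12 genes are Atf3, Trib3, Chac1, Nupr1, Asns, Pycr1, Pck2, Vldlr, Slc7a11, Slc1a4, Aars and Gars. None of the 6 serine and folate enzymes with a promoter in the table held it, which says only that these letters are not in that window. The windows of the 7 that were called lower on the Pax6 array and of Pycr1, which was called higher on the Pdx1 array, are shown as 60 bases in GRCm38.p6. They are read 5′ to 3′ on the strand where the element reads TGATGNAA, with the element in capitals.
Asns (chr6:7693199-7693258, minus strand): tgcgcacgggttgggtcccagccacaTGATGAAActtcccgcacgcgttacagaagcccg
Chac1 (chr2:119351023-119351082, minus strand): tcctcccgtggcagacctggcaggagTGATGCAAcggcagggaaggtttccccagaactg
Vldlr (chr19:27216794-27216853, minus strand): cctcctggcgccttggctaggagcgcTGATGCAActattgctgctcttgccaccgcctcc
Trib3 (chr2:152344013-152344072, plus strand): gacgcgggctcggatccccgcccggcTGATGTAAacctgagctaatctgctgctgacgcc
Slc7a11 (chr3:50443646-50443705, minus strand): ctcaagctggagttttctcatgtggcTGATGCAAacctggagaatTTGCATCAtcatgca
Aars (chr8:111033704-111033763, minus strand): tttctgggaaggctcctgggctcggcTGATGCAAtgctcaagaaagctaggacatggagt
Aars (chr8:111033825-111033884, minus strand): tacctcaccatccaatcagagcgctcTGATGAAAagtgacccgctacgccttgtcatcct
Gars (chr6:55037945-55038004, minus strand): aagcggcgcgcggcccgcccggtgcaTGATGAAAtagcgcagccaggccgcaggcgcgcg
Pycr1 (chr11:120643818-120643877, minus strand): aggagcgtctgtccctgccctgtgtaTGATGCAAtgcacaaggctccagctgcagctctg

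The Slc7a11 window holds the element once on each strand, and Aars holds it in separate windows before and after its start. In Asns the element begins 23 bases before the start and on the gene's own strand, as it does in Pycr1 at 103 bases and in Slc7a11 at 66 bases before the start. In Trib3 it begins 14 bases after the start, on the other strand.

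On the Pax6 array 22 of the 42 genes, or 52.4%, were called lower than both controls, where 6.39% of all 20966 genes were. None was called higher there, where 10.7% of all genes were. In RNA from whole cultures, fewer cells of a type and less RNA per cell cannot be told apart, here or in any result that follows. On the Esx1 array 6 were lower against a background of 7.41%, on Crebzf 7 against 6.28%, on Pdx1 7 against 6.63%, on Sox11 6 against 6.93% and on Zfp451 6 against 6.30%. Those counts are 14.3% of the 42 genes for 6 and 16.7% for 7. Higher calls were 1 gene on Esx1 (background 10.3%), 1 on Crebzf (9.83%), 2 on Pdx1 (9.85%), 1 on Sox11 (9.74%) and 1 on Zfp451 (9.59%).

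No member was called on the other 4 factor arrays. The backgrounds there for lower and higher calls were 0.572% and 0.434% on Hmga2, 1.0% and 0.644% on Gatad2b, 0.835% and 1.04% on Etv6, and 1.17% and 0.300% on Nfxl1. The median difference of the 42 genes was -1.12 on Pax6, -0.47 on Esx1, -0.38 on Crebzf, -0.33 on Pdx1, -0.37 on Sox11 and -0.31 on Zfp451. It was 0.12 on Hmga2, 0.16 on Gatad2b, 0.10 on Etv6 and 0.17 on Nfxl1. With each slide's mean removed the medians on Gatad2b, Etv6 and Nfxl1 were -0.07, -0.09 and -0.07. The mean of the controls' slide includes Pax6, so low Pax6 values raise the centred controls. The change of sign therefore cannot show which direction holds on those arrays.

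**Figure D1:**
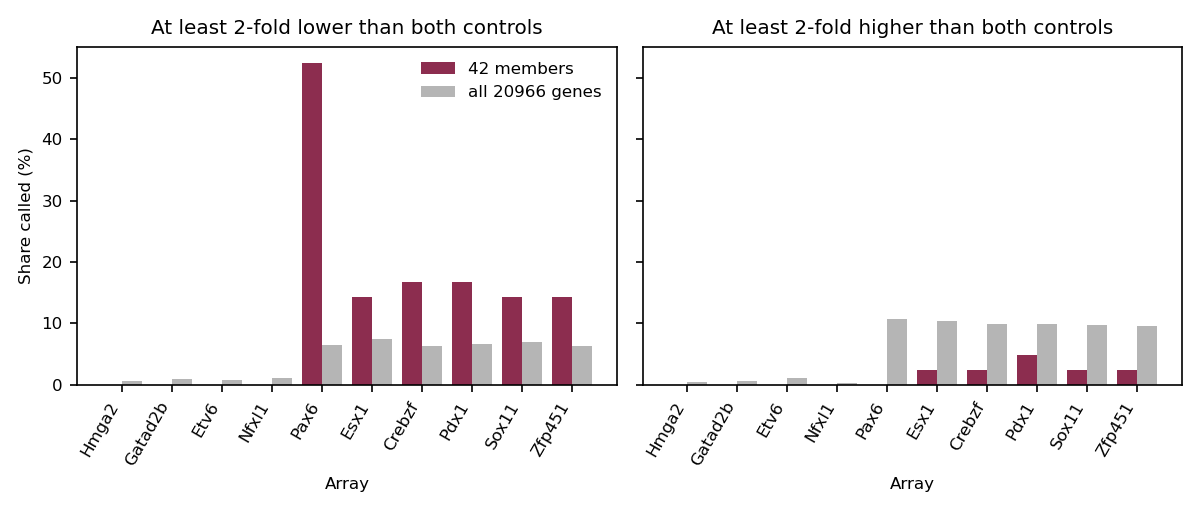
Share of genes called on each of the 10 factor arrays, in percent, for lower calls and higher calls, with the 42 members beside all 20966 genes. For lower calls the members' bar stands at 52.4% on Pax6 against 6.39% of all genes, and no member was called on Hmga2, Gatad2b, Etv6 or Nfxl1.

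Slide bears on these counts. Pax6 shared a slide with both controls, so its comparison with them lies within that slide and removal of slide means cannot change its calls. Crebzf, Pdx1, Sox11 and Zfp451 filled a slide of their own, removal of the slide mean left 0 calls on each of them, and for these arrays slide and factor cannot be told apart. Esx1 shared its slide with Gatad2b, Etv6 and Nfxl1, and against those 3 arrays singly it was at least 2-fold lower for 11, 10 and 12 of the 42 genes, where 8.22%, 7.96% and 7.88% of all genes were.

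Among the 42 genes, 19 were called lower on no array, 15 on 1 array, 1 on 2, 1 on 3, 1 on 4 and 5 on 6 arrays. The heatmap of differences shows each gene on each array. Taken by role on the Pax6 array, lower calls were 7 of 7 serine and folate enzymes, 4 of 7 tRNA synthetases, 4 of 9 transporters, 3 of 7 other enzymes and Vldlr, and 4 of 12 regulators. The median differences were -1.86, -1.17, -0.85, -0.85 and -0.70 in that order, beside 6.39% of all genes called and a median of -0.08.

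**Figure D2:**
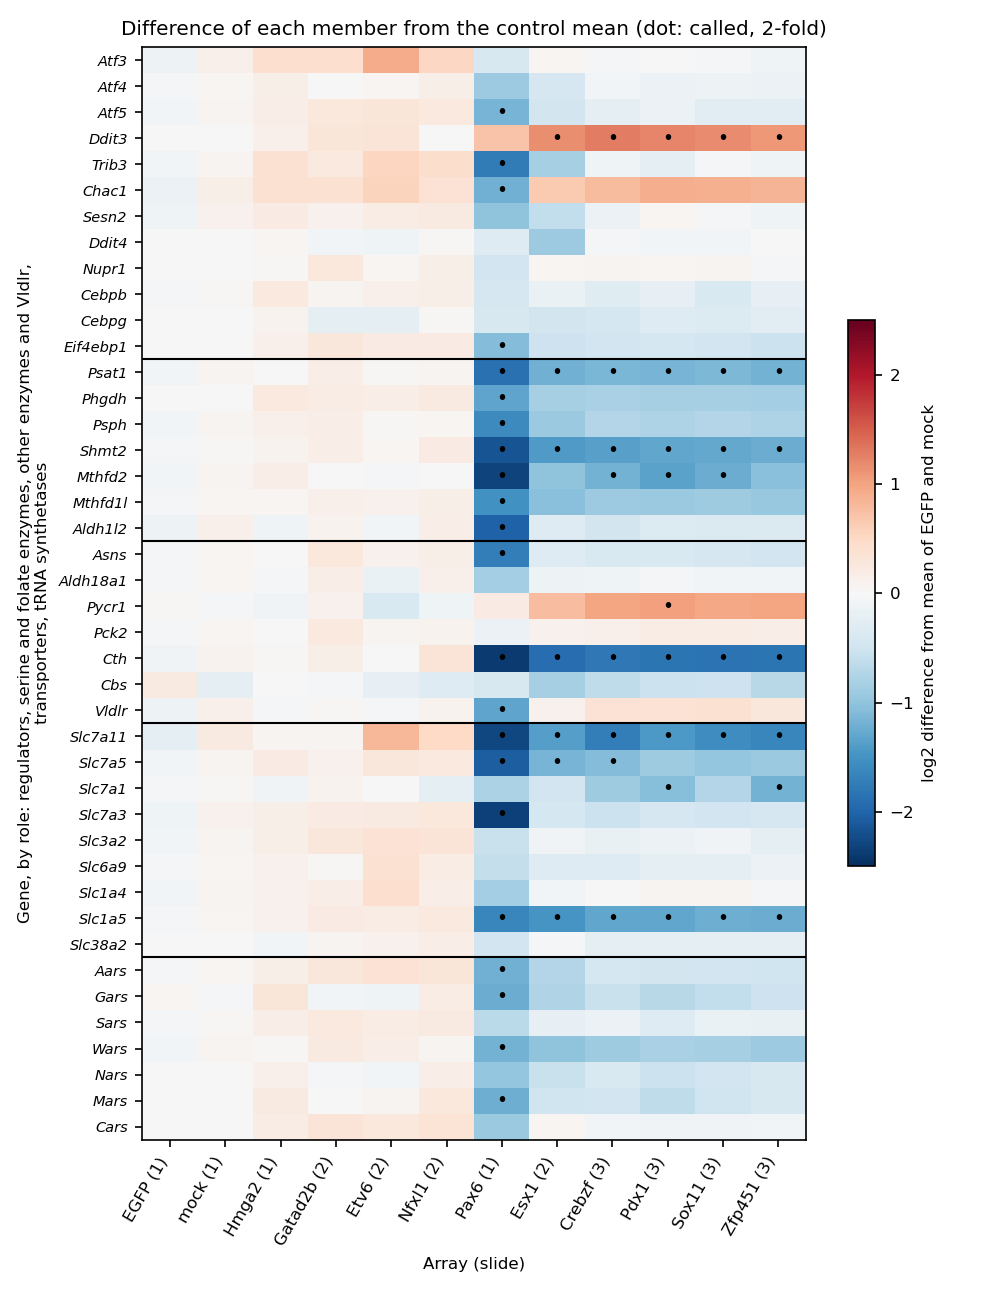
Log2 difference of each of the 42 genes (rows, ordered by role) from the mean of the EGFP and mock levels on each of the 12 arrays (columns, with slide in brackets), where blue is lower, red is higher and a dot marks a call. The Pax6 column holds 22 lower calls, and the row of Ddit3 holds 5 higher calls.

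Among the 12 regulators, Atf4 itself had a level of 1.97 on Pax6, 2.47 on Esx1, 2.82 on Crebzf, 2.73 on Pdx1, 2.77 on Sox11, 2.73 on Zfp451, 2.84 on EGFP, 2.93 on mock, 3.04 on Hmga2, 2.89 on Gatad2b, 2.93 on Etv6 and 3.04 on Nfxl1. The Pax6 array was thus the lowest and Esx1 the next, while the other 10 lay close together. The difference was -0.92 on Pax6, short of a call. Atf4 protein is set mainly by translation, which arrays do not measure.

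Atf5, a close relative of Atf4, was 2.23-fold lower on Pax6, a call lost after quantile normalization at -0.85. Trib3, a pseudokinase induced by ATF4 that feeds back on it, had a level of 0.29 on Pax6, 1.21 on Esx1, 1.93 on Crebzf, 1.80 on Pdx1, 2.0 on Sox11, 1.92 on Zfp451, 1.97 on EGFP, 2.10 on mock, 2.42 on Hmga2, 2.29 on Gatad2b, 2.57 on Etv6 and 2.47 on Nfxl1. It was 3.36-fold lower than the controls on Pax6 and differed by -0.04 to -0.23 on Crebzf, Pdx1, Sox11 and Zfp451. Its second probe gave -1.65 on Pax6 and -1.33 on Esx1. Eif4ebp1, which restrains cap-dependent translation when hypophosphorylated, was 2.12-fold lower on Pax6. That call is lost after quantile normalization at -0.76, with normexp and with the median of all genes set to 0, both at -1.0. Its second probe gave -1.11 on Pax6 but was lower on Esx1, at -1.44. The 2 probes disagreed on Gatad2b, Etv6 and Nfxl1, with 0.20 to 0.29 on the probe used and -0.57 to -0.76 on the second. Sesn2, which lowers mTORC1 activity when leucine is short, stood just outside a call there at -1.01, because it was not 2-fold below EGFP, and its other probe gave -0.57.

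Of the 12 regulators only Ddit3 stood above the control mean on Pax6, and Chac1 changed direction between Pax6 and the other factor arrays. Chac1, which degrades glutathione and is a sensitive ATF4 target, had a level of 0.78 on Pax6, 2.65 on Esx1, 2.78 on Crebzf, 2.89 on Pdx1, 2.87 on Sox11, 2.84 on Zfp451, 1.84 on EGFP, 2.13 on mock, 2.37 on Hmga2, 2.38 on Gatad2b, 2.55 on Etv6 and 2.36 on Nfxl1, with the probe at chr2:119095103-119095162. It was 2.31-fold below the controls on Pax6. On the other 9 factor arrays it stood above both controls, 0.37 to 0.90 above their mean, without a call. The lower call on Pax6 is lost after quantile normalization, at -1.06, and with the median of all genes set to 0, at -1.13.

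Ddit3 encodes CHOP, a stress-induced factor of the C/EBP family. Its level was -0.15 on Pax6, 0.31 on Esx1, 0.42 on Crebzf, 0.36 on Pdx1, 0.32 on Sox11, 0.24 on Zfp451, -0.84 on EGFP, -0.86 on mock, -0.72 on Hmga2, -0.55 on Gatad2b, -0.52 on Etv6 and -0.85 on Nfxl1, with the probe at chr10:126796858-126797161. It was called higher on Esx1, Crebzf, Pdx1, Sox11 and Zfp451, by 2.24, 2.41, 2.32, 2.25 and 2.13-fold, and its difference on Pax6 was 0.71. Ddit3 was the regulator called on the most arrays, and the only one called higher. The Zfp451 call is lost with a normexp background correction, at 0.99. With slide means removed all 5 calls are lost, with 0.92 on Esx1 and between 0.12 and 0.29 on Crebzf, Pdx1, Sox11 and Zfp451.

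The remaining regulators made no call. On Pax6, Atf3 stood at -0.40, Cebpb at -0.42, Cebpg at -0.39, Nupr1 at -0.48 and Ddit4 at -0.32. Atf3, an early stress-response factor, was highest on Etv6 with a difference of 0.93. Ddit4, an mTORC1 inhibitor also called REDD1, was lowest on Esx1 at -0.90. The 3 probes of Cebpg, a partner of ATF4, disagreed on Pax6, with 0.54 on another probe and -0.38 on the third.

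All 7 serine and folate enzymes were called lower on Pax6. Phgdh, Psat1 and Psph, which together turn 3-phosphoglycerate into serine, were 2.49, 3.64 and 3.03-fold lower. Shmt2, which splits serine into glycine and a one-carbon unit in mitochondria, was 4.47-fold lower. Mthfd2, which oxidises the folate-bound unit, Mthfd1l, which releases it as formate, and Aldh1l2, which oxidises it to carbon dioxide, were 4.98, 2.85 and 4.03-fold lower. On Esx1, Crebzf, Pdx1, Sox11 and Zfp451 the medians of these 7 genes were -1.0, -0.91, -0.93, -0.88 and -0.95, and the calls were 2, 3, 3, 3 and 2 of 7.

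Psat1 and Shmt2 were called lower on all 6 of these arrays. The level of Psat1 was 3.17 on Pax6, 3.82 on Esx1, 3.90 on Crebzf, 3.88 on Pdx1, 3.92 on Sox11, 3.85 on Zfp451, 4.96 on EGFP, 5.11 on mock, 5.02 on Hmga2, 5.20 on Gatad2b, 5.07 on Etv6 and 5.10 on Nfxl1, with the probe at chr19:15606408-15606467. On Sox11, the highest of the 6, the difference from EGFP alone, the lowest of the rest, was -1.04. With the median of all genes set to 0 Psat1 was still called on Pax6 and Zfp451. After quantile normalization Psat1 kept its call on Pax6 alone, with -0.93 on Esx1, -0.89 on Crebzf and Pdx1, -0.85 on Sox11 and -0.90 on Zfp451.

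The level of Shmt2 was 1.57 on Pax6, 2.32 on Esx1, 2.38 on Crebzf, 2.43 on Pdx1, 2.46 on Sox11, 2.49 on Zfp451, 3.71 on EGFP, 3.76 on mock, 3.82 on Hmga2, 3.89 on Gatad2b, 3.78 on Etv6 and 3.94 on Nfxl1, with the probe at chr10:127019144-127019203. Its folds below the controls on Esx1, Crebzf, Pdx1, Sox11 and Zfp451 ran from 2.37 to 2.66, all smaller than on Pax6, and the Zfp451 call is lost after quantile normalization at -0.99. Mthfd2 was called lower on Crebzf, Pdx1 and Sox11 as well, by 2.26, 2.53 and 2.38-fold. The Crebzf call is lost after quantile normalization, at -1.02, and the Sox11 call with the median of all genes set to 0, at -1.05. Its differences on Esx1 and Zfp451, -1.0 and -1.05, were just short of a call.

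Aldh1l2 followed another pattern. Its level was -1.60 on Pax6, 0.10 on Esx1, -0.05 on Crebzf, 0.07 on Pdx1, 0.06 on Sox11, 0.06 on Zfp451, 0.28 on EGFP, 0.54 on mock, 0.31 on Hmga2, 0.51 on Gatad2b, 0.34 on Etv6 and 0.58 on Nfxl1. Only the Pax6 array stood apart, 1.55 below Crebzf, the next lowest. This probe lies at chr10:83029335-83029394, and a second probe of Aldh1l2 gave -1.55 on Pax6, 0.90 below the nearest array.

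Of the other enzymes and Vldlr, Asns, Cth and Vldlr were called lower on Pax6. Asns makes asparagine, and its promoter element is the classic amino acid response site. The level of Asns was 4.27 on Pax6, 5.67 on Esx1, 5.61 on Crebzf, 5.61 on Pdx1, 5.57 on Sox11, 5.52 on Zfp451, 5.95 on EGFP, 6.04 on mock, 6.01 on Hmga2, 6.25 on Gatad2b, 6.10 on Etv6 and 6.15 on Nfxl1, with the probe at chr6:7628080-7628139. It was 3.32-fold lower than the controls on Pax6, with differences of -0.33 to -0.48 on Esx1, Crebzf, Pdx1, Sox11 and Zfp451.

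Cth, which makes cysteine from cystathionine, had the largest difference of the 42 genes on the Pax6 array. Its level was 0.29 on Pax6, 0.78 on Esx1, 0.90 on Crebzf, 0.87 on Pdx1, 0.84 on Sox11, 0.87 on Zfp451, 2.60 on EGFP, 2.79 on mock, 2.72 on Hmga2, 2.84 on Gatad2b, 2.69 on Etv6 and 3.01 on Nfxl1. It was 5.27-fold lower on Pax6, 3.76-fold on Esx1, 3.45-fold on Crebzf, 3.55-fold on Pdx1, 3.62-fold on Sox11 and 3.54-fold on Zfp451. The Cth probe lies at chr3:157802869-157802928. Unlike Asns, it was called on all 6 arrays.

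The level of Vldlr was -1.74 on Pax6, -0.31 on Esx1, -0.05 on Crebzf, -0.06 on Pdx1, -0.04 on Sox11, -0.13 on Zfp451, -0.55 on EGFP, -0.29 on mock, -0.47 on Hmga2, -0.39 on Gatad2b, -0.44 on Etv6 and -0.32 on Nfxl1, with the probe at chr19:26949577-26949636. It was 2.49-fold below the controls on Pax6, where a second probe gave -1.19, and 0.11 to 0.37 above their mean on Esx1, Crebzf, Pdx1, Sox11 and Zfp451. Pycr1, which makes proline, was called higher on Pdx1 by 2.05-fold, and its differences on Crebzf, Sox11 and Zfp451, between 0.97 and 0.99, were just outside a call. Aldh18a1, which starts proline synthesis, stood at -0.85 on Pax6 and at -0.05 to -0.13 on Esx1, Crebzf, Pdx1, Sox11 and Zfp451. Pck2, the mitochondrial phosphoenolpyruvate carboxykinase, and Cbs, which makes cystathionine, were at -0.16 and -0.41 on Pax6.

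Of the 9 transporters, Slc7a11, Slc7a5, Slc7a3 and Slc1a5 were called lower on Pax6. Slc7a11, the cystine importer xCT, had a level of -3.44 on Pax6, -2.54 on Esx1, -2.88 on Crebzf, -2.61 on Pdx1, -2.72 on Sox11, -2.79 on Zfp451, -1.39 on EGFP, -0.94 on mock, -1.10 on Hmga2, -1.09 on Gatad2b, -0.33 on Etv6 and -0.67 on Nfxl1, with the probe at chr3:50490342-50490401. It was 4.85-fold lower on Pax6 and 2.60 to 3.29-fold lower on Esx1, Crebzf, Pdx1, Sox11 and Zfp451. The other 3 probes of the gene gave -2.31, -2.06 and -2.03 on Pax6. With a normexp background correction the calls on Esx1 and Pdx1 are lost, at -1.17 and -1.16, and with the median of all genes set to 0 that on Esx1, at -1.18.

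Slc1a5, a glutamine and neutral amino acid exchanger, was also lower on all 6 arrays. Its level was 0.34 on Pax6, 0.49 on Esx1, 0.67 on Crebzf, 0.66 on Pdx1, 0.75 on Sox11, 0.72 on Zfp451, 1.91 on EGFP, 2.02 on mock, 2.07 on Hmga2, 2.16 on Gatad2b, 2.15 on Etv6 and 2.21 on Nfxl1, with the probe at chr7:14562181-14562240. Its fold on Pax6, 3.08, was close to the 2.77 on Esx1, and the remaining folds were 2.32 to 2.46, with the Sox11 call lost at -1.01 when the median of all genes is set to 0. Slc7a5, the large neutral amino acid transporter LAT1, was 4.17-fold lower on Pax6, 2.24-fold on Esx1 and 2.13-fold on Crebzf, and stood between -0.89 and -0.98 on Pdx1, Sox11 and Zfp451. After quantile normalization its Esx1 and Crebzf calls are lost, at -1.04 and -0.96.

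Slc7a3, a cationic amino acid transporter, was called on Pax6 alone. The level of Slc7a3 was 0.47 on Pax6, 2.37 on Esx1, 2.28 on Crebzf, 2.38 on Pdx1, 2.34 on Sox11, 2.39 on Zfp451, 2.70 on EGFP, 2.92 on mock, 2.95 on Hmga2, 3.01 on Gatad2b, 3.04 on Etv6 and 3.08 on Nfxl1, with the probe at chrX:96406676-96406735. It was 5.07-fold below the controls on Pax6, while its differences on Esx1, Crebzf, Pdx1, Sox11 and Zfp451 were between -0.42 and -0.54. Slc7a1, another cationic amino acid transporter, was instead called lower on Pdx1 and Zfp451, by 2.10 and 2.27-fold, and stood at -0.79 on Pax6. Those calls are lost with a normexp correction, at -0.44 and -0.60. On Pax6 the rest were not called, with Slc3a2, the heavy chain shared by Slc7a5 and Slc7a11, at -0.56, Slc6a9, a glycine transporter, at -0.60, Slc1a4, a neutral amino acid exchanger, at -0.85, and Slc38a2, the SNAT2 neutral amino acid transporter, at -0.47.

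Among the 7 tRNA synthetases, which join amino acids to their tRNAs, Aars, Gars, Wars and Mars were called lower on Pax6, by 2.30, 2.35, 2.26 and 2.33-fold. Nars, Cars and Sars stood at -0.96, -0.93 and -0.68. By the probes used, no synthetase of the 7 was called on any other array. Their medians on Esx1, Crebzf, Pdx1, Sox11 and Zfp451 were -0.56, -0.45, -0.53, -0.48 and -0.41. After quantile normalization the calls of Aars, Wars and Mars are lost, at -0.89, -1.0 and -1.0. The probes of Aars disagreed. The other 4 gave -1.45, -0.33, -0.08 and 0.10 on Pax6, the last well above background on 6 arrays. The mean of all Aars probes, -0.59, is not a call. On Esx1 the Aars probe with -1.45 on Pax6 gave -1.39, where the probe used gave -0.72. A second probe of Wars gave -1.33 on Pax6 and -1.18 on Esx1. The lack of synthetase calls on Esx1 thus depends on the probe chosen for these genes.

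In all, the 42 genes had 69 probes. Of the 27 probes not used above, 16 belong to genes called lower on Pax6, 15 of these had the same sign there and 13 were also called lower.

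The Pax6 array was compared with each of the other 11 arrays, a comparison chosen after the data were seen. It was the lowest of the 12 for 36 of the 42 genes, or 85.7%, where it was lowest for 14.0% of all genes. The 6 exceptions were Cebpg, Ddit4, Ddit3, Pycr1, Cbs and Slc7a1. Only 8 of the 20966 genes, 0.0382%, stood at least 2-fold below every other array on Pax6, and 5 of those 8 are among the 42. The 5 are Slc7a3, which stood 1.81 below the nearest array, Aldh1l2 at 1.55, Asns at 1.25, Vldlr at 1.19 and Chac1 at 1.06. The remaining 3, Prl2c3, BC051230 and Rpp25, are on none of the lists used here.

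At a 1.5-fold distance 48 genes, 0.229%, stood below every other array on Pax6, and 15 of them are among the 42, which is 35.7% of the 42 and 31.2% of the 48. Beyond the 5 above these were Mthfd2, Trib3, Slc7a5, Cars, Slc1a4, Shmt2, Atf5, Aldh18a1, Psph and Psat1. Mars, at 0.58, and Slc7a11, at 0.56, were just outside. A further 4 of the 48, the synthetases Iars and Tars and the aminotransferases Gpt2 and Bcat1, come from the wider amino acid lists described further on. One other probe of Slc7a11 stood 1.05 below the nearest array.

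On no other array did any of the 42 genes stand 1.5-fold below all the rest. Esx1, the array with the most such genes, had 169 of the 20966 at that distance. Chac1 was no longer 2-fold below every other array after quantile normalization, with slide means removed, or with the median of all genes set to 0. With slide means removed 3 genes of the 42 met that rule, Mthfd2, Aldh1l2 and Slc7a3, of 4 genes in all, and 6 of 25 met the 1.5-fold rule.

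**Figure D3:**
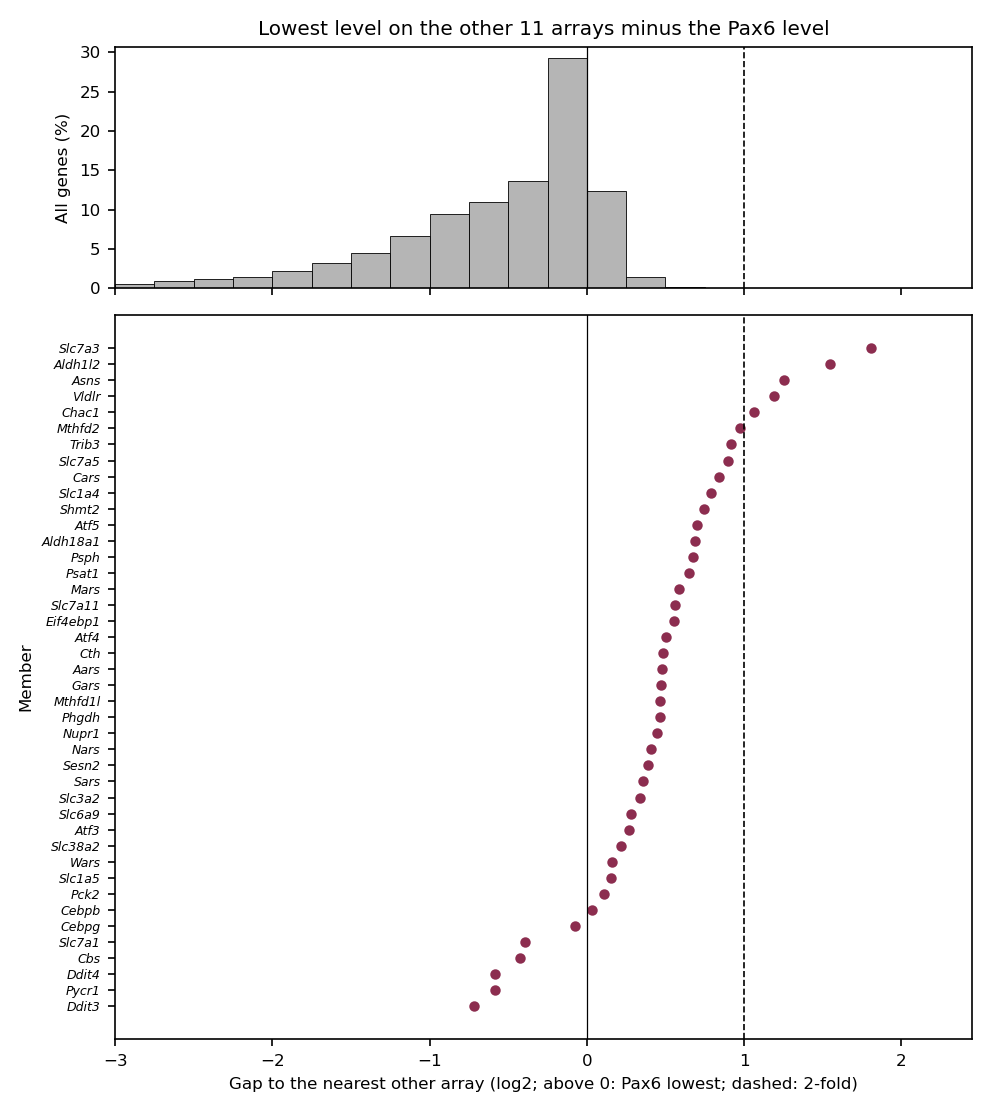
Top, the distribution over all genes of the gap between the Pax6 level and the lowest level on the other 11 arrays (log2, in percent of genes), and bottom, the same gap for each of the 42 genes. Points right of 0 are genes whose lowest array is Pax6, 36 of the 42, and the 5 at or right of the dashed 2-fold line are Slc7a3, Aldh1l2, Asns, Vldlr and Chac1.

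Against single factor arrays, the Pax6 array was at least 2-fold lower for 26 of the 42 genes against Hmga2, 26 against Gatad2b, 26 against Etv6 and 27 against Nfxl1, where 7.76%, 8.79%, 8.49% and 8.31% of all genes were. It was 2-fold lower for 6 against Esx1, 7 against Crebzf, 9 against Pdx1, 8 against Sox11 and 8 against Zfp451, where 1.88%, 1.43%, 1.45%, 1.29% and 1.27% of all genes were. In these 9 comparisons, which share the Pax6 array, no gene of the 42 was 2-fold higher on Pax6. The median gap to Esx1 was -0.50, and to Crebzf, Pdx1, Sox11 and Zfp451 it was -0.65, -0.61, -0.67 and -0.66, with medians of all genes between -0.02 and 0.05.

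**Figure D4:**
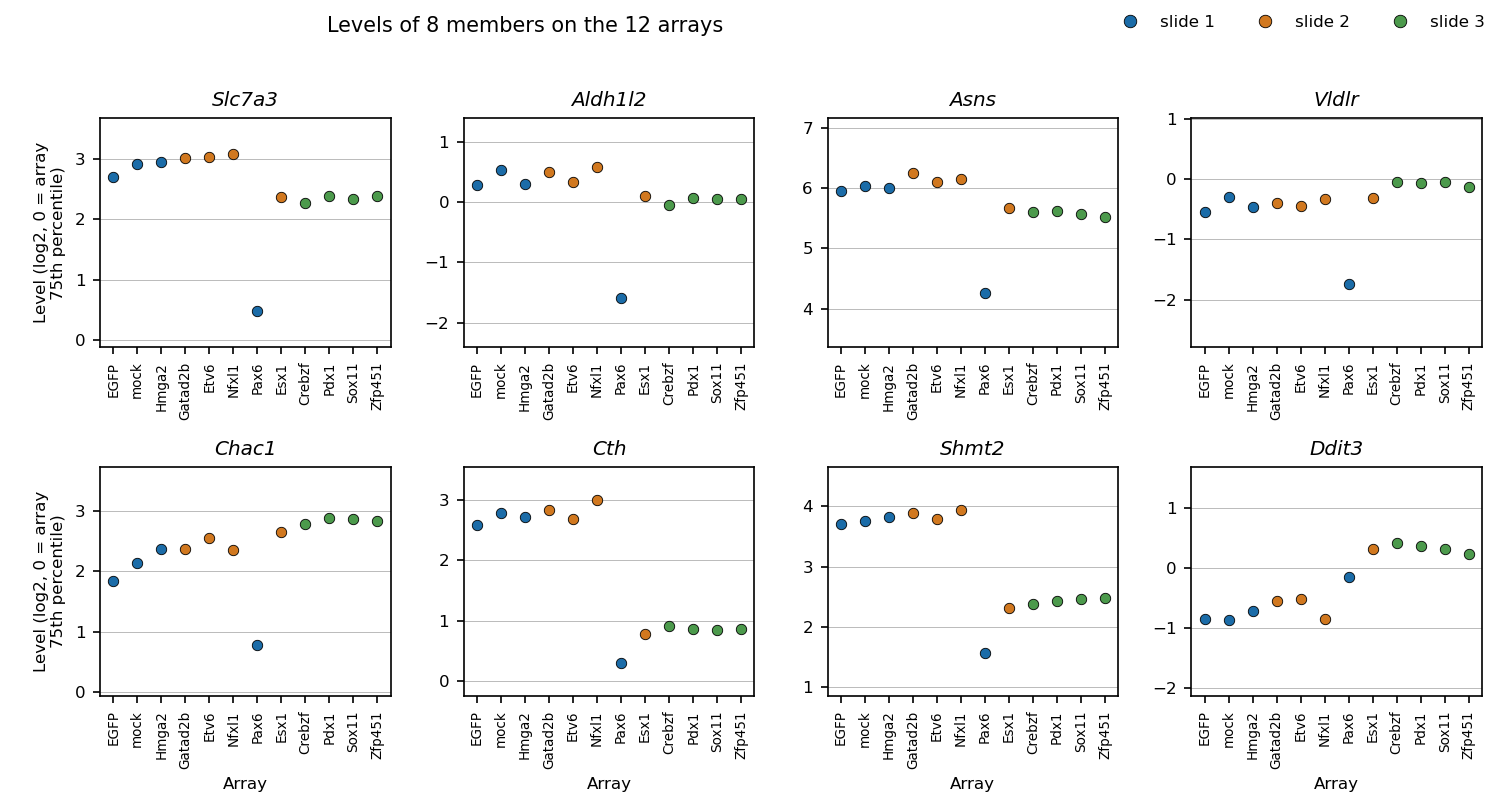
Levels of 8 genes (log2, where 0 is the array's 75th percentile) on each of the 12 arrays, 1 point per array, coloured by slide. Slc7a3, Aldh1l2, Asns and Vldlr are at least 2-fold below every other array on Pax6, Chac1 is below the controls on Pax6 and above them on the other factor arrays, Cth and Shmt2 are low on 6 arrays, and Ddit3 is high on 5.

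The 5 genes called lower on 6 arrays, Psat1, Shmt2, Cth, Slc7a11 and Slc1a5, are enzymes of serine synthesis, serine use and cysteine synthesis and importers of cystine and glutamine. On its own slide Esx1 was at least 2-fold below Gatad2b, Etv6 and Nfxl1 for all 5. Against those arrays singly 8.22%, 7.96% and 7.88% of all genes were. On all 5 genes the Pax6 level was the lowest of the 12, as it was for 14.0% of all genes. The 5 were chosen by their calls on these same arrays, Esx1 and Pax6 among them, so neither count is separate support.

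Lower calls on Pax6 were made with and without the promoter element. On Pax6, 7 of the 12 genes with the element were called lower, with a median difference of -1.20, and 8 of the 21 genes with a promoter but no element, with a median of -0.85. Of the 5 genes 2-fold below every other array, Asns, Vldlr and Chac1 hold it, and the table has no promoter for Slc7a3 or Aldh1l2. None of the 6 serine and folate enzymes with a promoter in the table holds it.

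Genes of neighbouring pathways were taken from lists and set beside the 42. Their counts stand beside the same shares of all genes as above, for lower calls 6.39% on Pax6 and 6.28% to 7.41% on Esx1, Crebzf, Pdx1, Sox11 and Zfp451, and for higher calls 10.7% and 9.59% to 10.3%. Of 10 kinases, phosphatases and subunits around eIF2α, whose phosphorylation raises ATF4 translation, 1 was called on Pax6, the subunit Eif2s1 at -1.12, and none on any other array. The median of the 10 on Pax6 was -0.52. The kinase Eif2ak3 (PERK), which senses unfolded protein, stood at 0.40 on Pax6 and 0.87 on Esx1, and the amino acid sensor Eif2ak4 (GCN2) at 0.27 and 0.47. Eif2b5, of the exchange factor eIF2B, was between -0.85 and -1.08 on the 6 arrays without a call.

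Of 18 other serine, glycine and folate enzymes measured, 10 were called lower and 1 higher on Pax6, and 9 lower on each of Esx1, Crebzf, Pdx1, Sox11 and Zfp451, with 1 higher on Esx1 and Pdx1 and 2 on Crebzf, Sox11 and Zfp451. Gart, an enzyme of purine synthesis, was at -2.13 on Pax6 and between -1.88 and -2.16 on those arrays. Mthfd1, the cytosolic one-carbon enzyme, was at -1.98 on Pax6 and -1.76 to -1.96 on them, and Shmt1, the cytosolic counterpart of Shmt2, at -1.70 and -1.25 to -1.42. For Gart the Pax6 difference lay inside the range of the other 5 arrays, and for Mthfd1 just below it. Gldc, of the glycine cleavage system, went the other way, called higher on Esx1, Crebzf, Pdx1, Sox11 and Zfp451 with differences of 1.98 to 2.19, and stood at 0.95 on Pax6. Aldh1l1, the cytosolic counterpart of Aldh1l2, was called higher on Pax6, Crebzf, Sox11 and Zfp451, with 1.14 on Pax6.

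Of 19 other amino acid enzymes 6 were called lower and 2 higher on Pax6, and 4 or 5 lower on Esx1, Crebzf, Pdx1, Sox11 and Zfp451. The 2 higher were Gpt, an alanine aminotransferase, at 1.06, and Arg2, an arginase well above background on that array alone. Odc1, the first enzyme of polyamine synthesis, was at -2.13 on Pax6 and -1.96 to -2.02 on those 5. Prodh, which breaks down proline, was at -2.10 and between -1.73 and -2.03. Bcat1, the cytosolic branched-chain aminotransferase, was at -1.98 and between -1.13 and -1.38. Of 17 other amino acid transporters 0 were lower on Pax6 and 1 was higher, the glutamate transporter Slc1a3 at 1.37, with a median of 0.04. Slc7a7 was the one called lower, on 4 arrays, with -1.30 on Esx1.

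Other cytosolic synthetases were lower for 6 of 13 on Pax6, with a median of -0.99, and for 1 or 2 on Esx1, Crebzf, Pdx1, Sox11 and Zfp451. Vars was the largest, at -1.73 on Pax6. Mitochondrial synthetases, which serve translation inside mitochondria, were lower for 4 of 17 on Pax6 and for 3 on each of those 5 arrays. Yars2 stood at -1.75 on Pax6 and at -1.70 to -1.91 on the 5, so its Pax6 value lay inside their range.

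ER chaperones and IRE1 or ATF6 targets, the other arms of the unfolded protein response, had medians between -0.08 and 0.19 on the 6 arrays. Of the 14, 1 was called on Pax6, Sdf2l1, lower at -1.39. Sdf2l1 was also called lower on Crebzf, Pdx1, Sox11 and Zfp451, at -1.08 to -1.17, and stood at -0.91 on Esx1. Herpud1, an ER degradation factor, was called higher on Esx1, Crebzf, Pdx1, Sox11 and Zfp451, the arrays on which Ddit3 was, by 1.38 to 1.42, and stood at 0.72 on Pax6. Xbp1, the target of IRE1, was called higher on 3 arrays, with 1.11 on Esx1 and 0.65 on Pax6. Targets of Nrf2, which also acts on Slc7a11, were lower for 4 of 9 on Pax6, 3 on Esx1 and 4 on each of the other 4, with Srxn1 at -1.99 on Pax6 and -1.61 to -1.67 elsewhere on them. Myc, a growth regulator that also acts on serine and folate genes, was at -2.40 on Pax6, -1.89 on Esx1, -2.24 on Crebzf, -2.12 on Pdx1, -2.11 on Sox11 and -2.07 on Zfp451. Of the 4 Myc family genes listed, 1 was called lower on each of these arrays except Sox11, with 2. The median of the 4 on Pax6 was -0.61.

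**Figure D5:**
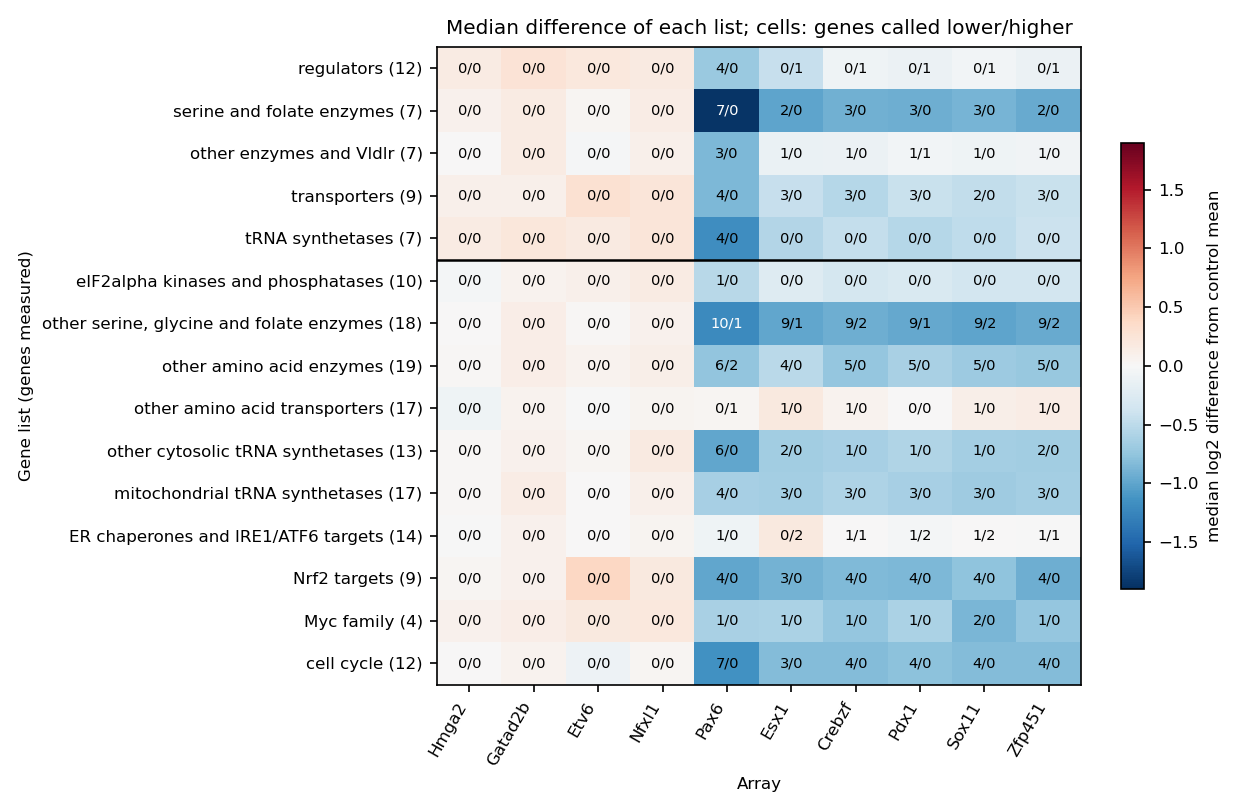
Median log2 difference from the control mean for the 5 roles of the 42 genes (above the line) and for 10 other lists (below it) on each factor array, with the number of genes called lower and higher in each cell. Serine and folate enzymes have 7 of 7 lower on Pax6, the other amino acid transporters have 0, and every cell of Hmga2, Gatad2b, Etv6 and Nfxl1 reads 0/0.

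Other values moved with the same arrays, and the shares of all genes given above for lower and higher calls stand beside these counts too. Of 12 cell cycle genes 7 were called lower on Pax6, 3 on Esx1 and 4 on each of Crebzf, Pdx1, Sox11 and Zfp451, with medians of -1.15, -0.83, -0.82, -0.78, -0.83 and -0.83. Their summed intensity, in multiples of the 75th percentile, was 103.8 on Pax6, 121.8 to 126.3 on those 5 arrays and 215.0 to 240.3 on the other 6. Of 8 fibroblast and mesenchyme markers 6 were higher on Pax6 and on Esx1, 4 on Crebzf, Pdx1 and Sox11 and 5 on Zfp451. Their sum was 226.7 to 243.5 on these 6 arrays and 94.8 to 105.6 on the others and Col1a1, Col1a2 and Col3a1 were well above background on all 12 arrays, controls included. Of 7 neuron markers 4 were higher on Pax6, Esx1 and Pdx1 and 3 on Crebzf, Sox11 and Zfp451. Tubb3 went the other way, at -0.63 on Pax6 and -0.10 to -0.27 on the 5, and Dcx was well above background on 1 array. The sum of the 7 neuron markers was 1.70 on Pax6, 1.86 to 1.94 on the 5 and 0.92 to 1.06 on the rest. Of 7 astrocyte markers 3 were higher on Pax6 and 2 on each of the 5, among them Apoe and S100b on all 6. Gja1, well above background on all 12 arrays, went the other way, at -0.27 on Pax6 and -0.18 to -0.42 on the 5. Gfap was well above background on 1 array. The median of the list was 1.09 on Pax6 and between -0.24 and 0.05 on the 5. The sum of the astrocyte markers was 16.0 on Pax6, 17.3 to 19.9 on the 5 and 6.27 to 7.43 on the rest, with Aqp4 not measured on Pax6. Of 9 progenitor markers 1 was called lower on each of Pax6, Esx1, Crebzf and Sox11, 0 on Pdx1 and 2 on Zfp451. On Crebzf 2 were called higher, Fabp7 and Olig2. The median of this list was -0.08 on Pax6 and between -0.37 and -0.19 on the 5. Nes was called lower on 5 arrays, with -1.51 on Pax6, -1.37 on Esx1 and -1.08 to -1.13 on Crebzf, Pdx1, Sox11 and Zfp451. Sox2 went the other way, at 0.72 on Pax6, 0.62 on Esx1 and 0.03 to 0.26 on the other 4. The part of cell division and of a change in cell types in the results above was not tested.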

How the data were processed

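Total RNA of 12 cultures was hybridised to one-colour Agilent arrays, 1 array per culture. The deposited values are intensities on the linear scale, background-subtracted by Agilent Feature Extraction 10.7.3.1, per the file headers (gProcessedSignal). The authors' deposited value table equals that column on all 12 arrays, and no source used here gives a later normalization. The files place probes on mm7, per the file headers.

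Control and outlier spots were left out and repeated spots averaged (43379 spots, 41174 probes). Each array's log2 intensity was taken relative to its 75th percentile and raised to the lowest well-above-background signal of that array (between -6.96 and -6.45). Probes were named through RefSeq accession (23082), symbol (6582), synonym (3073) or the file's own name (8437), and the probe with the highest mean stood for a gene. The number of arrays limits the precision. With 1 array per group no p-value was computed, a call is at least 2-fold from both controls with the brighter side well above background, and counts of the members are read beside the share of all 20966 genes called on the same array. The rule was tested on simulated data. All 42 members may be named, and up to 4 called genes of each other list with the largest distance from both controls. Eif2ak3, Eif2ak4, Eif2b5, genes beyond 4 in a list and marker genes were named after their values were seen. The members and lists were chosen with earlier results of these data known.

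Alternatives were quantile normalization, normexp (offset 50, limma 3.58.1 in R 4.3.3), the mean of a gene's probes, genes well above background on all 12 arrays, slide centring, a 3-fold threshold, each control alone and no floor. The median of all genes set to 0 and the comparison of Pax6 with every other array were added after seeing the data. Other steps used Python 3.11.15 with pandas 2.3.3.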

Additional observations from a re-analysis of the deposited data

How the results depend on the processing

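None of the 60 calls of a member on an array changed direction under any alternative. With EGFP alone, mock alone or no floor all 60 were still calls, with the mean of a gene's probes 59, with normexp 53, with the median of all genes set to 0 (chosen after seeing the data) 48, with quantile normalization 45, with slide centring 28 and with a 3-fold threshold 15. On Pax6, lower calls were 17 with quantile normalization, where 6.61% of all genes were lower, and 10 at 3-fold, where 1.55% were. Slide centring cannot change a Pax6 call, since both controls share its slide. At 3-fold 1 member was lower on each of Esx1, Crebzf, Pdx1, Sox11 and Zfp451, where 1.16% to 1.89% of all genes were, and 0 were higher, where 5.24% to 5.57% were. Slide centring gave 12 lower and 0 higher on Esx1, where 5.97% and 10.6% of all genes were called. The mean of the controls' slide includes Pax6, so low Pax6 values raise the centred controls and bear on that count of 12. Slide centring gave 0 of either kind on Crebzf, Pdx1, Sox11 and Zfp451, where at most 0.105% of all genes were lower and 0.463% higher. Those 4 arrays make up a slide without a control, and centring removes any shift they share. It left 3 members 2-fold and 6 members 1.5-fold below every other array on Pax6. Quantile normalization gave 4 lower on Esx1, Crebzf and Zfp451 (7.18%, 5.80% and 5.83% of all genes) and 2 higher on Crebzf, Sox11 and Zfp451 (10.1%, 9.98% and 9.74%). With the median of all genes set to 0, 3 were lower on Esx1 and on Sox11 (4.59% and 3.85%), and 2 were higher on Crebzf, Sox11 and Zfp451 (10.9%, 12.4% and 10.6%). Against EGFP alone 2 were higher on Etv6 and on Sox11 (1.48% and 10.4%), and against mock alone 2 on Crebzf and on Zfp451 (11.3% and 11.1%). No paired analysis was possible because each group has 1 array and no replicate to leave out or pair. Each member was well above background on every array, but 7 calls were lost with normexp, among them calls of Slc7a1 and Slc7a11. The lack of replicates limits every value: a difference seen on 1 array cannot be told apart from the spread between cultures.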
